A study of Mus musculus with 9 samples.

Results

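Transcripts of 10 myeloid marker genes were followed in 9 RNA-seq libraries of mouse embryonic fibroblast cultures, out of 24062 gene symbols in the deposited table of read counts. The genes were taken as a list of known markers of macrophages and related white cells: Csf1r, Lyz2, Tyrobp, Cd52, Fcer1g, Ptprc, Cd14, Aif1, Laptm5 and C1qa. The questions were how much myeloid RNA the cultures held, and whether it followed the treatment group or the replicate number.

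Macrophages are phagocytic white cells that reach embryonic tissues early in development and stay there among the structural cells. They live on signals through the receptor encoded by Csf1r, whose ligands are secreted by fibroblasts and other neighbouring cells. Mouse embryonic fibroblasts are cultured from dissociated embryo tissue, so the starting cell suspension can hold cells of other lineages.

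All cultures were C57BL/6 fibroblasts described as non-senescent and harvested 4 days after lentiviral infection. A p21 lentivirus was used for 3 libraries, a p16 lentivirus for 3 and a control lentivirus, labelled EV, for 3. The labels do not give the promoter of the lentivirus, nor do they say that replicates came from separate cultures or embryos, and p-values measure only the spread between these samples. The table gives raw counts per gene, and the library kit keeps no strand.

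Library totals ran from 44455730 to 63152239 counts. Cdkn1a, which encodes p21, averaged 1605 CPM (counts per 1000000 library counts, scaled by TMM) in p21 cultures and 360.2 CPM in control cultures, and Cdkn2a, which encodes p16, averaged 1731 CPM in p16 cultures and 37.9 CPM in control cultures. Fibroblast genes were abundant, with overall means of 14536 CPM for the collagen gene Col1a1, 5211 CPM for Vim and 560 CPM for Thy1, while the matrix genes Dcn and Lum were low, at 2.79 and 0.68 CPM. The libraries numbered 3 stand apart in Xist, the RNA that coats the inactive X chromosome of female cells: it gave 193 CPM in p21 replicate 3, 181 CPM in p16 replicate 3 and 251 CPM in control replicate 3, 6.96 CPM in p21 replicate 1 and at most 0.340 CPM in the other 5 libraries. Counts of marker genes are therefore given below with and without the libraries numbered 3, and without p21 replicate 1.

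The 10 markers together took 0.00214 to 0.00490% of all counts in a library. In bulk RNA, fewer cells of a type and less RNA per cell cannot be told apart, so a level here is no cell number. All 10 genes were detected in p21 and p16 libraries, and in control libraries Aif1 had counts in only 1 library and Cd52 in 2. Several genes that define other blood lineages had no count. Of the T cell list, 4 of 9 genes (Cd3e, Cd3g, Cd8a and Cd2) had no count in any library, and the summed list lay between 0.264 and 0.411 CPM in p21 libraries, between 0.264 and 0.713 CPM in p16 libraries and between 0.367 and 0.665 CPM in control libraries. The B cell gene Ms4a1, the NK cell genes Ncr1 and Gzma, the neutrophil genes S100a9, Ngp and Ltf, the mast cell genes Cpa3, Tpsb2 and Fcer1a and all 4 adult globin genes on the red cell list also had no count in any library. Some lists for other blood cells did have counts. The list of dendritic cell and MHC class II genes summed to 6.39 to 7.25 CPM in p21 libraries, 6.85 to 7.73 CPM in p16 libraries and 6.18 to 6.94 CPM in control libraries, with Siglech at 0. The megakaryocyte list summed to 8.09 to 8.82 CPM in p21 libraries, 7.96 to 8.61 CPM in p16 libraries and 7.20 to 8.13 CPM in control libraries, so both ran above every single marker except Lyz2. Both sums varied little between libraries, though single genes differed. In edgeR, 1 of 5 tested dendritic and MHC class II genes and 1 of 3 megakaryocyte genes were called higher with p21 (19.8% of all genes). These were Xcr1, by 1.12 log2 units (edgeR, adjusted p = 0.0206), and Gp1bb, by 0.47 (adjusted p = 0.0438). The macrophage genes Marco and Timd4, which mark particular resident populations, were likewise at 0 throughout.

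Lyz2 supplied most of the marker counts, and the gene is widely used to drive Cre in myeloid cells of mice. Promoter sequences from RefSeq (GRCm38.p6) matched 5 of the 10 members: Lyz2, Fcer1g, Ptprc, Aif1 and Laptm5. The bases upstream of the gene are shown for Lyz2, as the most abundant member, and for Fcer1g, the adaptor gene, at chr10:117282322-117282522 and chr1:171234366-171234599, both read from the minus strand. Capitals mark GGAA, the core letters bound by ETS factors such as the myeloid regulator PU.1, on either strand (TTCC on the strand shown).
Lyz2: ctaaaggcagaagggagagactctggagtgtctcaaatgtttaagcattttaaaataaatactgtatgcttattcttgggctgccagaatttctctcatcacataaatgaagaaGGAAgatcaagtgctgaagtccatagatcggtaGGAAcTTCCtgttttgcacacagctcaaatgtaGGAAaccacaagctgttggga
Fcer1g: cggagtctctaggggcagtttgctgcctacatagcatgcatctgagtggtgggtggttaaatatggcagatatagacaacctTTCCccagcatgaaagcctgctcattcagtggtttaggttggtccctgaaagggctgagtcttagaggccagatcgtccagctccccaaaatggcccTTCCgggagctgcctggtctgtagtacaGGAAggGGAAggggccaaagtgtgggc
The printed stretches hold 4 matches each. Over the whole 300-base window there are 5 for Lyz2 and 7 for Fcer1g, against a median of 3 over 32851 mouse promoters, of which 96.0% have at least 1 and 8.02% have 7 or more. The longer GAGGAA, searched on both strands, is absent from the 300-base windows of Lyz2 and Fcer1g. It is present in those of Aif1 and Laptm5, in 1 of the 2 windows of Ptprc, and in 28.3% of all promoters. A match is a description of letters, not of a bound site, and the GGAA search was added after the values were seen.

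Per exon length, Lyz2 was the most abundant member, with a mean of 15.9 RPKM (CPM divided by the exon length in kilobases) and a range of 9.09 to 23.4 RPKM over the 9 libraries. No other member reached that range. C1qa followed with 2.01 RPKM, then Cd14 with 1.70, Tyrobp with 1.37, Fcer1g with 0.961, Csf1r with 0.694 and Laptm5 with 0.620 RPKM, and each of these ranges overlapped that of its neighbour in the order. Cd52 (0.154 RPKM), Aif1 (0.0466 RPKM) and Ptprc (0.0281 RPKM) were lowest, and their ranges also overlapped one another. The length used joins all annotated exons of a gene, so the order depends on the annotation. By reads Ptprc, with 15 to 54 a library, was above Aif1, with 0 to 9. Col1a1 had a mean of 2215 RPKM on the same scale.

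**Figure D1:**
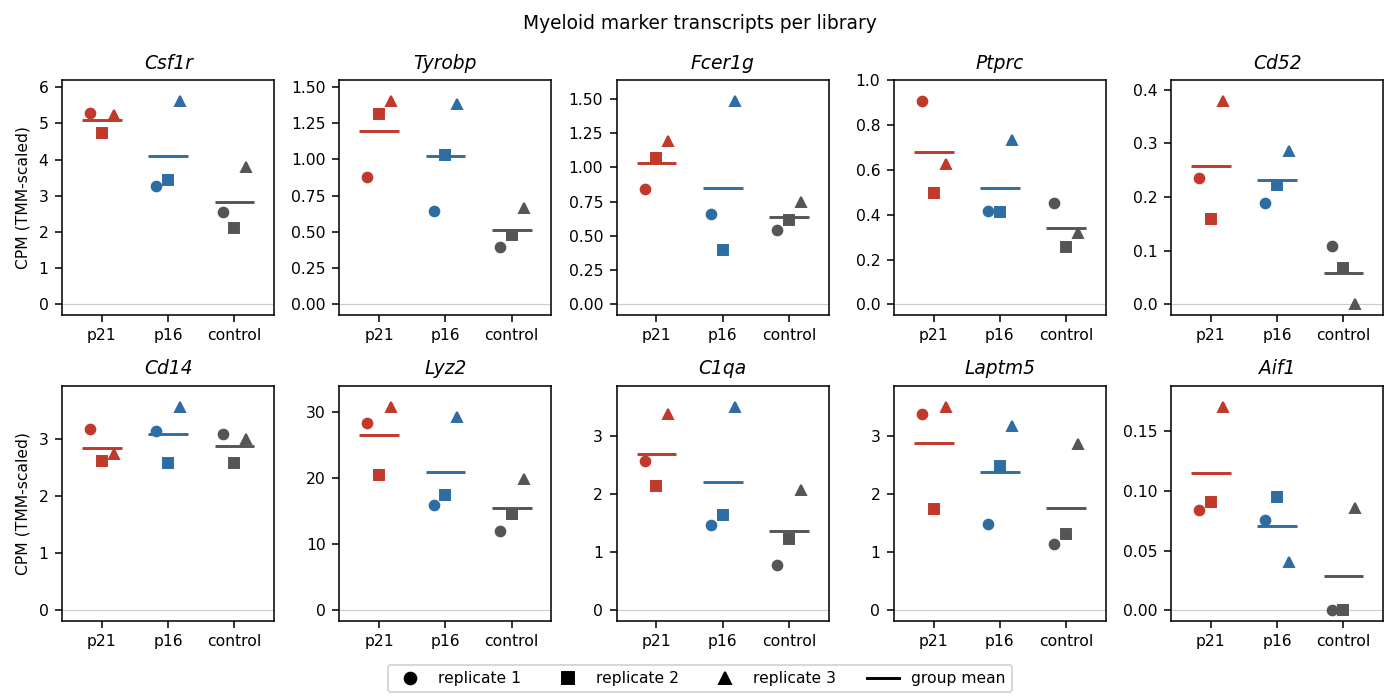
Levels of the 10 markers in each library, in TMM-scaled CPM, for p21, p16 and control cultures; symbols give the replicate number and bars the group mean. For Csf1r the p21 libraries lie between 4.74 and 5.29 CPM and the control libraries between 2.11 and 3.80 CPM, while Cd14 lies between 2.57 and 3.57 CPM in all libraries.

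Csf1r encodes the receptor tyrosine kinase that carries the survival signal of macrophages (chr18:61100598-61132149, plus strand, GRCm38). It had 5.29, 4.74 and 5.22 CPM in p21 libraries 1, 2 and 3, 3.27, 3.44 and 5.62 CPM in p16 libraries, and 2.56, 2.11 and 3.80 CPM in control libraries. The p21 and control libraries did not overlap, whereas p16 replicate 3 was the highest of all 9 and the other p16 libraries lay within the control range. Csf1r was higher in p21 than in control cultures by 0.86 ± 0.23 log2 units (SE; edgeR quasi-likelihood test, adjusted p = 0.00983), and the p16 difference was 0.55 with an adjusted p of 0.154 in edgeR. With replicate number in the edgeR fit, the p16 difference of 0.54 passed, at an adjusted p of 0.00901. On the opposite strand, exons of Hmgxb3 cover 15.1% of the exon bases of Csf1r, and without strand their reads cannot be separated.

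Both ligands of this receptor were expressed. Csf1, the main ligand, had 1468, 1436 and 1110 CPM in p21 libraries, 1105, 1029 and 864 CPM in p16 libraries and 787, 786 and 652 CPM in control libraries. Within each group the library numbered 3 was the lowest, the reverse of Csf1r in the p16 and control cultures, and p21 and control libraries did not overlap. Csf1 rose by 0.85 ± 0.11 log2 units with p21 (edgeR, adjusted p = 7.51e-05) and by 0.43 ± 0.11 with p16 (edgeR, adjusted p = 0.0261). The p16 call was lost on leaving out p16 replicate 1, where the adjusted p was 0.101 in edgeR, and on leaving out p16 replicate 2 or any 1 control library. Il34, the other ligand, had 6.38, 5.90 and 6.91 CPM in p21 libraries, 5.18, 4.82 and 6.34 CPM in p16 libraries and 4.35, 3.96 and 4.17 CPM in control libraries. It rose by 0.62 ± 0.12 log2 units with p21 (edgeR, adjusted p = 0.00125), and differed by 0.39 with p16 at an adjusted p of 0.0585.

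Tyrobp encodes DAP12, a membrane adaptor with an activation motif (ITAM) that serves receptors such as TREM2 (chr7:30413760-30417585, plus strand). It had 0.876, 1.32 and 1.41 CPM in p21 libraries, 0.642, 1.03 and 1.39 CPM in p16 libraries and 0.397, 0.480 and 0.662 CPM in control libraries. Every p21 library lay above every control library, and within each group replicate 3 was highest and replicate 1 lowest. The p21 cultures were higher than control cultures by 1.23 ± 0.33 log2 units (edgeR, adjusted p = 0.0105). For p16 the difference was 1.0 with an adjusted p of 0.0739, and with replicate number in the edgeR fit 0.97 with 0.0108. The counts behind these values are small, 52 to 74 reads in p21 libraries, 34 to 68 in p16 libraries and 22 to 31 in control libraries.

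Fcer1g encodes the common gamma chain of Fc receptors, the other ITAM adaptor of the list (chr1:171229572-171234365, minus strand). Its levels were 0.842, 1.07 and 1.20 CPM in p21 libraries, 0.661, 0.398 and 1.49 CPM in p16 libraries and 0.541, 0.617 and 0.748 CPM in control libraries. All p21 libraries were above all control libraries, while p16 held both the highest and the lowest of the 9 values. The p21 difference of 0.70 ± 0.40 log2 units did not pass (edgeR, adjusted p = 0.184; 0.0689 with replicate number in the fit), nor did the p16 difference of 0.40 (adjusted p = 0.595).

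Ptprc encodes CD45, the tyrosine phosphatase found on all nucleated blood cells (chr1:138062861-138175708, minus strand). Its levels were 0.909, 0.499 and 0.627 CPM in p21 libraries, 0.416, 0.414 and 0.734 CPM in p16 libraries and 0.451, 0.257 and 0.320 CPM in control libraries. The lowest p21 library was just above the highest control library, and the p16 libraries overlapped both. The p21 difference was 0.99 ± 0.36 log2 units, with an adjusted p of 0.0461 in edgeR, which rose above 0.05, up to 0.205, without p21 replicate 1 or 3, p16 replicate 1 or 2, or control replicate 2 or 3. The p16 difference of 0.59 had an adjusted p of 0.354.

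Cd52 encodes a short glycoprotein anchored to the surface of white cells (chr4:134082448-134095082, minus strand, with 14.5% of its exon bases shared with Crybg2 on the opposite strand). It had 14, 7 and 20 reads in p21 libraries (0.236, 0.159 and 0.380 CPM), 10, 14 and 14 reads in p16 libraries (0.189, 0.223 and 0.285 CPM), and 6, 4 and 0 reads in control libraries (0.108, 0.0686 and 0 CPM). The count of 0 in control replicate 3 allows a level of up to 0.0641 CPM, counting error only. Every p21 and every p16 library lay above every control library. The fitted p21 difference was 2.04 ± 0.63 log2 units (edgeR, adjusted p = 0.0221) and the p16 difference 1.86 (adjusted p = 0.0830; 0.0482 with replicate number in the fit). The p21 call was lost without p21 replicate 3 or control replicate 2 or 3, with adjusted p up to 0.0895. Both differences rest on few reads, and Cd52 passed the filter on low counts only through its p21 and p16 libraries.

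Cd14 encodes a surface receptor that hands bacterial lipopolysaccharide to TLR4 and is not restricted to macrophages (chr18:36725067-36726798, minus strand). Its levels were 3.17, 2.61 and 2.73 CPM in p21 libraries, 3.14, 2.58 and 3.57 CPM in p16 libraries and 3.09, 2.57 and 2.99 CPM in control libraries. The 3 groups overlapped completely, and replicate 2 was the lowest in each. The differences were -0.018 ± 0.15 log2 units for p21 (edgeR, adjusted p = 0.940) and 0.098 for p16 (adjusted p = 0.744), and the sign for p21 turned on leaving out p21 replicate 2 or 3 or control replicate 1 or 3.

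Lyz2 encodes the lysozyme of macrophages, which cuts bacterial cell walls (chr10:117277331-117282321, minus strand). It had 28.4, 20.4 and 30.8 CPM in p21 libraries, 16, 17.5 and 29.3 CPM in p16 libraries and 12, 14.6 and 19.9 CPM in control libraries. The lowest p21 library was just above control replicate 3, and p16 replicate 3 was close to the p21 libraries numbered 1 and 3. Lyz2 was higher in p21 than in control cultures by 0.79 ± 0.23 log2 units (edgeR, adjusted p = 0.0161), a call lost on leaving out p21 replicate 1 or 3 or control replicate 1 or 2, with adjusted p up to 0.0715. With p16 the difference was 0.44 (edgeR, adjusted p = 0.257), and 0.42 ± 0.10 (adjusted p = 0.00431) with replicate number in the fit. The neighbouring lysozyme gene Lyz1 is a near copy, with 55 to 138 reads a library, and the share of reads placed on each is uncertain.

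C1qa encodes a chain of C1q, which starts the classical complement pathway (chr4:136895917-136898803, minus strand). It had 2.58, 2.13 and 3.38 CPM in p21 libraries, 1.47, 1.64 and 3.50 CPM in p16 libraries and 0.776, 1.23 and 2.07 CPM in control libraries. In each group replicate 3 was the highest, and control replicate 3 came close to the lowest p21 library without overlapping it. The p21 difference was 1.01 ± 0.37 log2 units (edgeR, adjusted p = 0.0462), lost when p21 replicate 1 or 3, p16 replicate 2 or control replicate 1 or 2 was left out, with adjusted p up to 0.163. The p16 difference was 0.70 (adjusted p = 0.262; 0.68 with 0.0160 when replicate number was in the edgeR fit). Of the partner chains, C1qb was higher by 0.96 with p21 (edgeR, adjusted p = 0.0402), and C1qc differed by 0.81 without passing (adjusted p = 0.0832). The C1qb call was lost without p21 replicate 1 or 3 or control replicate 1 or 3, with adjusted p up to 0.139.

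Laptm5 encodes a lysosomal membrane protein of blood cells (chr4:130913125-130936141, plus strand). It had 3.39, 1.75 and 3.51 CPM in p21 libraries, 1.49, 2.50 and 3.18 CPM in p16 libraries and 1.14, 1.32 and 2.86 CPM in control libraries. The groups overlapped, and replicate 3 was the highest in each. The p21 difference of 0.73 ± 0.37 log2 units did not pass (edgeR, adjusted p = 0.134), but did at 0.78 ± 0.23 with replicate number in the fit (adjusted p = 0.00669). Aif1, which encodes the actin-binding protein IBA1 (chr17:35170991-35176068, minus strand), had 5, 4 and 9 reads in p21 libraries, 4, 6 and 2 in p16 libraries and 0, 0 and 4 in control libraries. It did not pass the filter on low counts and was not tested.

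In the p21 cultures, 5 of the 8 markers that were over the filter on low counts in every library were higher than in control cultures: Csf1r, Tyrobp, Lyz2, C1qa and Ptprc. No marker was called lower. Cd52 was also called, which makes 6 of 9, but it was over the filter in 2 p21, 3 p16 and 0 control libraries, so its entry into the test depended on the groups where it is high. Among all 14223 genes tested, 39.9% were called in this comparison, 19.8% higher and 20.1% lower. Libraries of the 2 groups did not overlap for 7 of the 9 markers with p21 higher, the 5 above, Fcer1g and Cd52, against 24.2% of all genes. The median log2 difference was 0.86 over the 9 markers, 0.82 over the 8 without Cd52 and 0.0011 over all genes. Csf1r and Tyrobp passed in every alternative run, with adjusted p of at most 0.0462 and 0.0460 in edgeR when 1 library was left out. Cd52 apart, the count of 5 was 2 without p21 replicate 1, the library with the intermediate Xist level, and also 2 without p21 replicate 3 or control replicate 2, and 3 without p16 replicate 2 or control replicate 1. Without the 3 libraries numbered 3, 5 markers passed, namely Csf1r, Tyrobp, Lyz2, C1qa and Laptm5. Counts with libraries left out come from separate fits (14329 genes without the libraries numbered 3), to which the shares of all genes above do not belong. The shares of all genes in those fits are not given here, so these counts cannot be set against them.

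Markers of other cell types also differed with p21. Of the skeletal muscle list, 8 genes, the summed level was 575 to 659 CPM in p21 libraries, 325 to 343 CPM in p16 libraries and 221 to 229 CPM in control libraries, and both genes tested, Acta1 (1.57 log2 units) and Des (1.36), were called higher in edgeR. Ckm, the muscle creatine kinase gene, was at 0 in all libraries. The endothelial list summed to 12.7 to 14.4 CPM in p21 libraries, 10.2 to 12.1 CPM in p16 libraries and 10.5 to 11.7 CPM in control libraries, with 0 of 6 tested genes called for p21. Of the epithelial list, 2 of 3 tested genes were called higher, with sums of 17.0 to 18.1 CPM in p21 libraries, 14.6 to 15.5 CPM in p16 libraries and 13.8 to 16.9 CPM in control libraries. Of the fibroblast list, 5 of 12 genes were called higher and 2 lower. The part of these shifts in the marker differences was not tested.

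In the p16 cultures, no marker passed against control in edgeR, where 11.4% of all genes were called and 5.80% were called higher. At an unadjusted p under 0.05 in edgeR there were 3, Csf1r, Tyrobp and Cd52, the last with the filter limit given above. The share of all genes at that cut was not counted, so the 3 cannot be set against it. DESeq2 called 1, Tyrobp, and limma-voom called 0, while the shares of all genes given here are those of edgeR. All 9 estimates were above 0, with a median of 0.55 log2 units, and over all genes 7185 of 14223 were above 0. Of the 8 markers other than Cd52, none had p16 libraries that were all above the control libraries, against 16.1% of all genes. Between p21 and p16 cultures no marker passed in edgeR, DESeq2 or limma-voom, and 0 had an unadjusted p under 0.05 in edgeR, where 13.1% of all genes were called and 6.15% higher. No marker had p21 libraries that were all above the p16 libraries, against 14.9% of all genes. Without the libraries numbered 3, Lyz2 and Csf1r passed between p21 and p16, and again no marker passed between p16 and control. Here too the shares of all genes above do not belong to that fit, and its own share is not given here.

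Libraries of the same number deviated together from their group means over all genes, and with replicate number as a block more markers passed. In that fit, p21 cultures had 6 of 8 markers higher, the 5 above and Laptm5, where 24.0% of all genes were called higher. For p16 against control it was 4 of 8, Lyz2, Csf1r, Tyrobp and C1qa, where 11.3% of all genes were called higher. Cd52 was called in both comparisons as well, with the limit given above. Lyz2 was the 1 marker that passed between p21 and p16, with a difference of 0.38 ± 0.097 log2 units (adjusted p = 0.00634 in edgeR), where 11.0% of all genes were called higher. The sizes hardly moved and the errors shrank: the SE of the p21 difference was 0.10 for Lyz2, 0.14 for Csf1r and 0.20 for C1qa with the block, against 0.23, 0.23 and 0.37 without it.

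**Figure D2:**
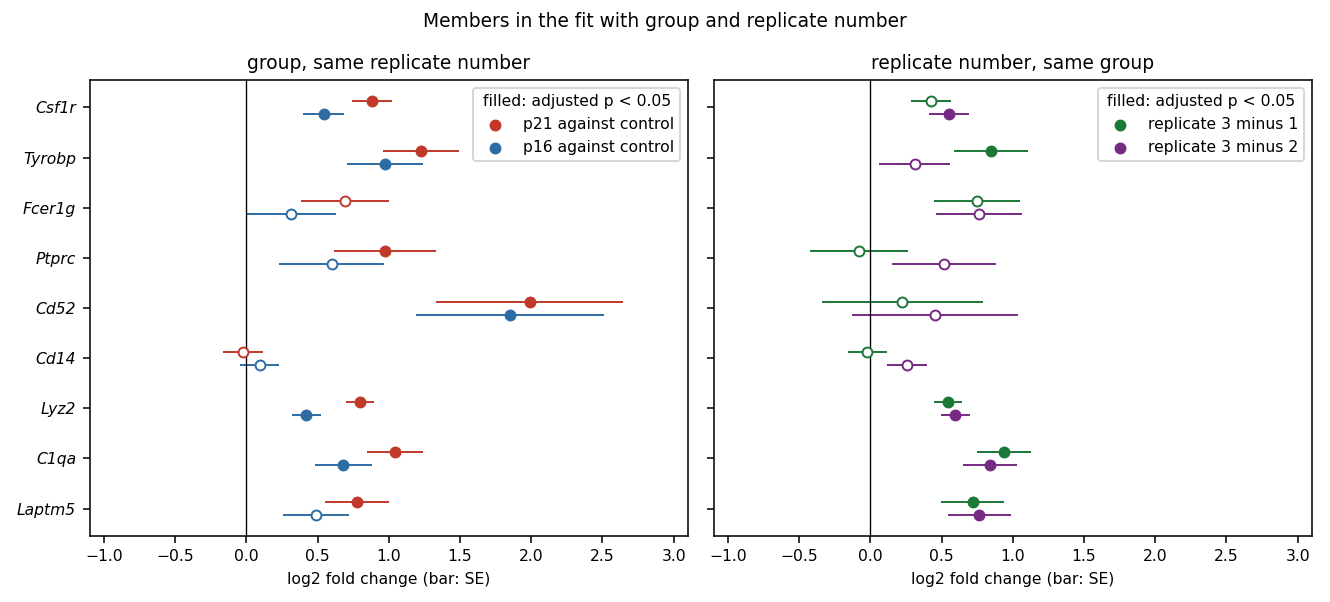
Log2 fold changes of the 9 tested markers in the edgeR fit with group and replicate number together, with bars for the SE. On the left, p21 and p16 against control at the same number, 7 and 5 markers past the threshold with Cd52 included; on the right, replicate 3 against replicates 1 and 2 within a group, 4 and 4 markers past it.

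The same fit gave the differences between replicate numbers at a fixed group. Libraries numbered 3 held more marker RNA than those numbered 1: Lyz2 by 0.54, C1qa by 0.94, Tyrobp by 0.85 and Laptm5 by 0.72 log2 units, 4 of 9 past the edgeR test with adjusted p of 5.56e-04, 0.00171, 0.0444 and 0.0465, where 3.78% of all genes were called higher. Against replicate 2, Lyz2 was higher by 0.60, C1qa by 0.84, Csf1r by 0.55 and Laptm5 by 0.77 log2 units, 4 of 9 past the test (2.85% of all genes). Between replicates 2 and 1 no marker passed, at an adjusted or an unadjusted p under 0.05 in edgeR, and 0.464% of all genes were called. Other cell-type genes moved with the number too. Of 12 fibroblast genes, 7 were higher and 1 lower in replicate 3 than in replicate 1, and again than in replicate 2, among them Pdgfra by 0.40 and 0.51 and Postn by 0.34 and 0.39 log2 units. Of 6 tested endothelial genes 1 passed in each, Emcn, higher by 1.16 (edgeR, adjusted p = 2.07e-05) and 0.62 (adjusted p = 0.0151). Pdgfra, Postn, Emcn, Acta1 and Des are named after their values were seen, and the part of these shifts in the marker differences was not tested. Over the 9 tested markers the median difference was 0.54 for replicate 3 over 1 and 0.55 over 2. In the same fit it was 0.88 for p21 and 0.54 for p16 over control. Single markers varied: Lyz2 differed by 0.54 and 0.60 by number, against 0.80 for p21 and 0.42 for p16. Fcer1g differed by 0.75 and 0.76 by number against 0.69 for p21. Ptprc differed by -0.079 and 0.52 by number against 0.98 for p21, and Cd52 by 0.22 and 0.45 against 1.99, with the filter limit given above.

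Testing the 3 groups together and the 3 numbers together in this fit, group terms passed for 6 markers, Lyz2, Csf1r, Laptm5, Cd52, C1qa and Tyrobp, where 44.2% of all genes passed. Number terms passed for 4, Lyz2, Csf1r, Laptm5 and C1qa, where 7.76% of all genes passed. Thus Lyz2, Csf1r, Laptm5 and C1qa passed for both terms in the same model, and Tyrobp for the group term, as did Cd52, with the limit given above. For Lyz2 the edgeR adjusted p was 2.75e-06 for group and 1.62e-04 for number. Without p16 replicate 3 the number terms passed for 1 marker, Lyz2, and without p16 replicate 1 or any 1 control library for 2.

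The split of each marker's variation over the 9 libraries is given as a description. Between-group differences made up 67.7% of the sum of squares of log2 CPM for Tyrobp, 61.2% for Csf1r, 50.5% for Lyz2 and 45.2% for C1qa. Differences between numbers made up 29.6%, 27.1%, 37.2% and 45.1% for those genes in the same order. Over all genes tested the medians were 51.2% between groups and 15.0% between numbers. For Cd14, 10.6% lay between groups and 64.4% between numbers, and for Cd52, 67.6% and 1.60%. Cd52 was over the filter on low counts only in p21 and p16 libraries, so its split is no fair comparison of group with number. For Ptprc the shares were 55.1% and 21.3%. The share between numbers was the larger for Laptm5 (27.8% and 43.0%) and Fcer1g (27.1% and 39.6%). A large share was not always a call: number terms passed for neither Cd14 (edgeR, adjusted p = 0.395) nor Fcer1g (adjusted p = 0.186).

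**Figure D3:**
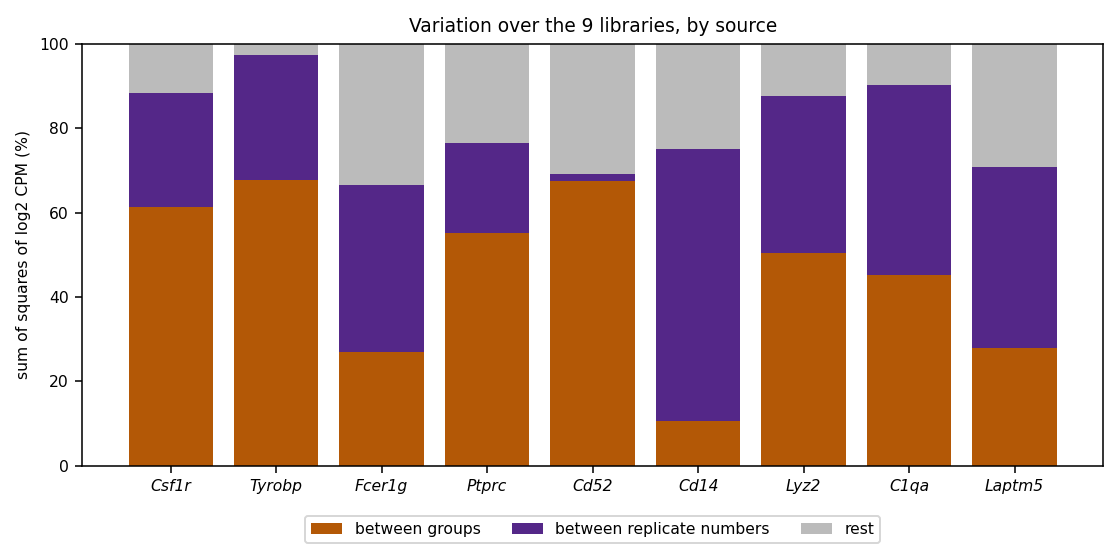
Share of each marker's sum of squares of log2 CPM over the 9 libraries that lies between the 3 groups, between the 3 replicate numbers, and in neither. The share between numbers is largest for Cd14, at 64.4%, and smallest for Cd52, at 1.60%. Cd52 passed the filter on low counts only through its p21 and p16 libraries.

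Summed over the 10 markers, levels as CPM of the library total were 44.8, 34.5 and 48.6 CPM in p21 libraries, 27.3, 29.7 and 49.0 CPM in p16 libraries, and 21.4, 23.7 and 34.0 CPM in control libraries. The lowest p21 library was barely above control replicate 3, and p16 replicate 3 matched p21 replicate 3. Group means were 42.6 ± 7.30 CPM for p21, 35.3 ± 11.9 CPM for p16 and 26.4 ± 6.73 CPM for control (SD, n = 3 each). By number, the means were 31.2 CPM for replicate 1, 29.3 CPM for replicate 2 and 43.9 CPM for replicate 3. Of the sum of squares of the log2 sum, 48.6% lay between groups, 40.9% between numbers and 10.5% in neither.

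Within a number, the order of groups was p21, p16, control from high to low for numbers 1 and 2, and for number 3 p21 and p16 were level with both above control. The mean log2 difference was 0.70 for p21 over control (SD 0.30 over the 3 numbers), 0.39 for p16 over control (SD 0.11) and 0.30 for p21 over p16 (SD 0.36). Of the 10 markers, 10, 10 and 9 were higher in p21 than in control at numbers 1, 2 and 3. For p16 over control it was 9 at each number, and for p21 over p16 it was 10, 7 and 5. These counts compare single libraries and include near-ties. At numbers 1 and 2, Cd14 counted as higher at ratios of 1.03 and 1.01 for p21 and 1.02 and 1.0015 for p16. Aif1 had 0 reads in control replicates 1 and 2, and Cd52 also rests on few reads. The share of all genes that were higher in these pairs was not counted. With 1 library for each group and number, whether the p21 to p16 difference changes with the number was not tested.

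**Figure D4:**
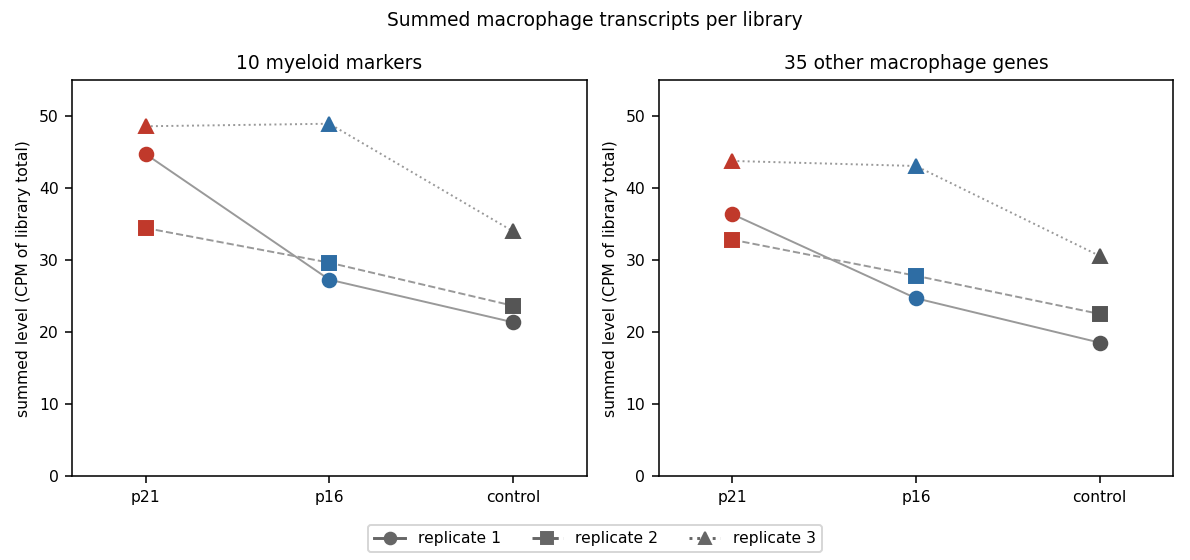
Summed level per library, in CPM of the library total, of the 10 markers (left) and of 35 other macrophage genes (right), with lines joining libraries of the same replicate number across p21, p16 and control. Markers run from 21.4 CPM in control replicate 1 to 49.0 CPM in p16 replicate 3, and the other genes from 18.6 CPM in control replicate 1 to 43.8 CPM in p21 replicate 3.

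Lyz2 made up most of the marker counts in all libraries. It took 56.9 to 62.7% of the 10 markers' counts in every library, Csf1r 9.08 to 13.6%, Laptm5 5.02 to 8.56%, C1qa 3.69 to 7.13% and Ptprc 0.958 to 2.15%. Fcer1g ranged from 1.33 to 3.07%, Cd52 from 0 to 0.768% and Aif1 from 0 to 0.345%. The mean share of Tyrobp was 2.85% in p21 cultures, 2.88% in p16 cultures and 1.98% in control cultures. Cd14 ranged from 5.53 to 14.7%, with means of 6.65% in p21 cultures, 9.12% in p16 cultures and 11.6% in control cultures.

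**Figure D5:**
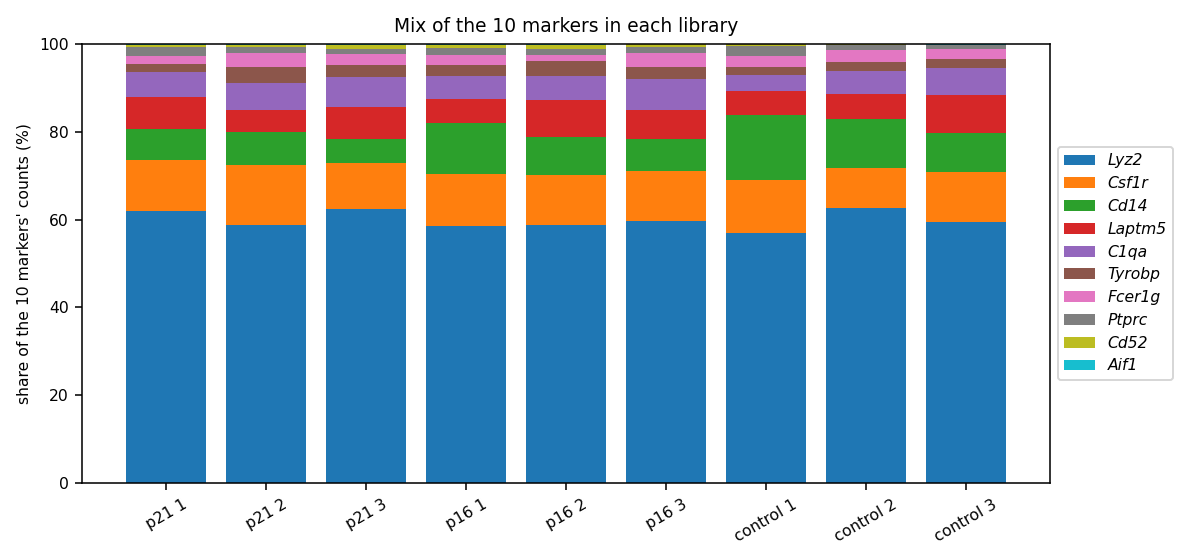
Each marker as a share of the 10 markers' summed counts, per library, for p21, p16 and control replicates 1 to 3. Lyz2 takes 56.9 to 62.7% in every library, and the share of Cd14 is highest in control replicate 1, at 14.7%.

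A separate list of 36 macrophage genes, 35 of them in the table, summed to 36.4, 32.9 and 43.8 CPM in p21 libraries, 24.7, 27.9 and 43.1 CPM in p16 libraries and 18.6, 22.6 and 30.6 CPM in control libraries. It ranked the 9 libraries in the same order as the 10 markers except that the top pair, p21 and p16 replicate 3, changed places. Like the markers, the list was chosen with earlier results of these data known, so it is no independent check. Over all genes, 7131 of 14223 had estimates above 0 for p21 against control. All 25 tested genes had estimates above 0 for p21 against control, with a median of 0.73 log2 units, and 5 were called higher and 0 lower, a share close to the 19.8% over all genes. These were Lcp1, Cd84, Siglec1, Coro1a and C1qb. Lcp1, an actin-bundling protein of white cells, rose by 1.05 ± 0.25 (edgeR, adjusted p = 0.00461), and Cd84, a surface receptor of white cells, by 1.79 ± 0.43 (adjusted p = 0.00524); both passed in every alternative run. The calls of Siglec1 (1.41, adjusted p = 0.0330) and Coro1a (0.64, adjusted p = 0.0366) were lost without p21 replicate 1 or 3 or control replicate 1 or 2. With replicate number in the fit, 15 of the 25 were called higher, where 24.0% of all genes were.

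The list also varied with the replicate number. For replicate 3 over replicate 1, all 25 estimates were above 0 and 7 were called (3.78% of all genes were called higher), with a median of 0.67 log2 units. Over replicate 2, 24 were above 0 and 3 were called (2.85% of all genes), with a median of 0.54. The lysosomal protease gene Ctss was higher in replicate 3 than in replicate 1 by 0.95 (edgeR, adjusted p = 0.00195), and Lcp1 by 0.63 (adjusted p = 0.00176). Csf1, the ligand, went the other way, lower in replicate 3 than in replicate 1 by a log2 difference of -0.34 ± 0.030 (adjusted p = 1.64e-08). Cd68, a lysosomal gene often used as a macrophage marker though not restricted to them, differed by 0.15 with p21 and did not pass (edgeR, adjusted p = 0.410).

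Genes of the pathways around the markers did not all move with them. Of 8 tested myeloid transcription factor genes, 0 rose and 4 fell with p21, where 19.8% of all genes rose and 20.1% fell: Runx1 by a log2 change of -0.31, Cebpb of -0.32, Cebpa of -0.51 and Irf5 of -0.34, with edgeR adjusted p of 0.00105, 0.00907, 0.0258 and 0.0282. The calls of Runx1 and Cebpb passed in every alternative run, that of Cebpa was lost without p21 replicate 1 or 2 or control replicate 1 or 3, and that of Irf5 without p21 replicate 1 or 3, control replicate 3 or the 3 libraries numbered 3. These factors are also made outside blood cells. Spi1, which encodes PU.1 and is named here after its values were seen, had 28, 32 and 34 reads in p21 libraries, 16, 18 and 45 in p16 libraries and 2, 20 and 15 in control libraries. All p21 libraries had more reads than any control library, and the difference of 1.39 ± 0.60 log2 units did not pass (edgeR, adjusted p = 0.0848; 0.0104 with replicate number in the fit).

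Of 12 tested ITAM receptor and kinase genes, 5 rose and 1 fell with p21, where 19.8% of all genes rose and 20.1% fell. Plcg2, a phospholipase downstream of ITAM receptors, rose by 0.73 (edgeR, adjusted p = 9.75e-04), and the Src-family kinase gene Lyn by 0.29 (0.00835). Syk, the kinase that docks on the ITAMs of DAP12 and the Fc receptor gamma chain, fell by 0.26 on the log2 scale (adjusted p = 0.00126). These 3 calls passed in every alternative run. Group terms passed for 6 of these 12 genes in edgeR (44.2% of all genes) and number terms for 0 (7.76% of all genes). Of 11 tested genes of the CD14 and TLR4 pathway, 4 rose and 1 fell with p21, against the same shares. Tlr4, the receptor, rose by 0.42 (edgeR, adjusted p = 0.0382), the adaptor gene Ticam1 by 0.31 (5.71e-04) and the kinase gene Irak4 by 0.23 (0.0217), while the adaptor gene Tirap fell by 0.17 on the log2 scale (0.00992); scaled by library totals alone, Tlr4 and Irak4 did not pass. Without p21 replicate 1 neither Tlr4 (0.127) nor Irak4 (0.0820) passed in edgeR; Tlr4 was also lost without p21 replicate 2, p16 replicate 2 or control replicate 3, Irak4 without control replicate 2 and Tirap without control replicate 1. Of the 5 listed genes of the C1 complex and its inhibitor, 2 rose, against 19.8% of all genes: C1qb, and C1s1, the protease subunit, by 0.47 (edgeR, adjusted p = 0.0340), whose call was lost with library totals alone (0.0524), without the libraries numbered 3, and without p21 replicate 1 or 2 or control replicate 1 or 3.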

How the data were processed

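RNA was measured in 9 libraries (TruSeq RNA v2). The authors deposited raw read counts per gene symbol. The tools named in the submitters' processing notes are TopHat2 2.0.14, Bowtie2 2.2.6 and featureCounts 1.4.6, with the build mm10; the annotation and strand setting are not given in the sources used here. Positions and exon lengths come from GENCODE M21 (GRCm38), which matched 22750 of 24062 symbols.

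Genes were kept by edgeR 4.0.16 (R 4.3.3) filterByExpr (minimum count 10, minimum total 15; 14223 left) and scaled by TMM. One quasi-likelihood fit by group (6 residual degrees of freedom) and one by group and replicate number, over all libraries, gave two-sided tests; p-values were adjusted over every tested gene by Benjamini-Hochberg and called under 0.05. Each SE was derived from the test, as the absolute log2 fold change over the square root of its F value. Summed levels use library totals. Sums of squares used a prior count of 2 for single genes and log2(CPM + 0.5) for the sum. The tests were checked on simulated counts. A count of 0 was bounded at 3 counts.

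Same-numbered libraries deviated together (correlations 0.126 to 0.361, other pairs -0.246 to 0.106). This was clearest for number 3, at 0.332 to 0.361. For numbers 1 and 2 it was 0.126 to 0.202, against 0.0477 to 0.106 for pairs of a 1 with a 2. A fit in which numbers pair the samples was therefore run beside the main fit by group, from the data and not the labels. The members and lists were chosen with earlier results of these data known. Of each other list, the genes with the 4 smallest p and the 4 most abundant per length could be named. Alternatives were RLE scaling, library totals, no filter, DESeq2 1.42.0, limma-voom (limma 3.58.1), the compared groups alone, the replicate block and left-out libraries. A planned search of adaptor proteins was not run. Some listed genes are not reported here.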

Additional observations from a re-analysis of the deposited data

How the results depend on the processing

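Counted with Cd52, the number of markers past the threshold kept within 1.5 times its main value, or at 0, except as follows. Between p16 and control, where edgeR called 0, DESeq2 called 1 and the replicate block 5. Between p21 and p16, where edgeR called 0, the replicate block gave 1, and leaving out the libraries numbered 3 in all groups gave 2. For number terms, limma-voom called 2 against 4 in edgeR. Leaving out 1 library in turn gave 2 to 6 markers for p21 against control, 0 to 1 for p16 against control (1 without p16 replicate 1 or control replicate 3), 0 to 0 for p21 against p16, 4 to 6 for group terms and 1 to 4 for number terms. With the replicate block, p21 against control had 7. The summed p16 minus control log2 difference was 0.65 when each marker was scaled to its mean first, against 0.39. The cause of these shifts was not tested, and the shares of all genes in the runs with libraries left out are not given here.

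Signs turned only for estimates that did not pass. Without the libraries numbered 3, these were Cd14 for p21 (0.038), Fcer1g for p16 (-0.15), and, between p21 and p16, Cd52 (-0.040) and Cd14 (0.028). With 1 library left out, their estimates ran from -0.11 to 0.037 (Cd14, p21), -0.27 to 0.75 (Fcer1g, p16) and -0.015 to 0.22 (Cd14, p16), and between p21 and p16 from -0.20 to 0.40 (Cd52), -0.011 to 0.50 (Tyrobp) and -0.052 to 0.97 (Fcer1g). Of the other single-gene results, counted once for each alternative run, 1117 kept their status, 44 gained a call and 92 lost one. The 1117 include results that were not called in either run, so they are no count of kept calls. Scaling by library totals alone made 36.8% of the p21 calls over all genes higher, against 49.6%, and 33.3% of the p16 calls, against 51.1%. Under it Ptprc (adjusted p = 0.0544, edgeR) and C1qa (0.0554) lost their p21 calls.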

Other observations

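The genes whose levels ran most like the mean profile of the markers over the 9 libraries were mostly not on any of the lists. The 12 highest Pearson correlations, given as a description over 9 libraries that share 3 groups and 3 numbers, were Hecw1 (0.993), Dact3 (0.985), Nagk (0.974), Zadh2 (0.973), Pfkfb3 (0.965), Lcp1 (0.964), Aes (0.962), Cotl1 (0.961), Cebpd (0.961), Vps8 (0.959), Atp8b4 (0.958) and Cacnb4 (0.956). Lcp1 is the 1 gene among them from the separate macrophage list, of which 6 of 25 tested genes were among the 200 highest of 14214. The median correlation over that list was 0.81. Among the markers themselves, the correlation with their own mean profile, which each helps to make, was highest for Csf1r (0.960) and Lyz2 (0.957) and lowest for Cd14 (0.437).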
